A study of Homo sapiens with 6 samples.

Results

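The genes described here are 57 interferon-stimulated genes, a list fixed by name with earlier results of these data known. They are among the 60617 genes measured in melanoma cells that had become resistant to a BRAF inhibitor. All 57 were found in the files, and all 57 passed the filter on low values that 16555 genes passed. RNA-seq had been run on 6 libraries of the human melanoma line 1205LuTR, with 2 libraries for each group. PBRT16 cells and PBRT15 cells, 2 paradox breaker resistant tumor (PBRT) lines that had grown out of resistant tumors, were given 500 nM PLX8394, a BRAF inhibitor built so that it does not activate the pathway in cells with normal BRAF. The parental cells, sensitive to the drug, were given its solvent DMSO. All cells are labelled as derivatives of 1205LuTR, a line that the study's methods describe as modified to carry a GAL4-ELK1 reporter, and grew in MCDB153 with serum, Leibovitz L-15 and insulin. Each resistant group is 1 line, and no parental cells with drug or resistant cells without it were analysed here, so line and drug cannot be told apart. The labels do not say whether both libraries of a group were grown apart, so each p-value reflects only how these libraries scatter, which may be technical.

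Interferon-stimulated genes are the genes that cells switch on when an interferon, a secreted antiviral protein, binds its receptor. The receptor activates the kinases JAK1 and TYK2, which phosphorylate STAT factors, STAT2 among them. STAT2 acts with IRF9 in a complex that binds a DNA motif, the interferon-stimulated response element, in front of the genes. Another motif, the gamma-activated site, is known from the response to interferon gamma. Cells can also switch many of these genes on without added interferon, when sensors find double-stranded RNA or DNA inside the cell. The products block viral replication, tag proteins with the ubiquitin-like ISG15, present antigen and call in immune cells, and tumor cells often keep part of this program active.

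Values are the deposited normalized signal, on a scale where about 1 unit was worth 1 read in every library, and the library totals lay between 27877963 and 29580752. Levels of different genes are not compared, since the values are not per length. A fold change is a difference of means of log2(value + 1), which understates the change of genes near 0, and its error is the standard error (SE) of the limma fit with 2 libraries per group. A gene is said to have risen or fallen at an adjusted p of at most 0.05 in limma, with Benjamini-Hochberg adjustment over all 16555 genes. The genes were sorted by role after their values had been seen.

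The DNA in front of these genes is shown first, with the motifs through which interferon signaling is known to act. RefSeq promoter windows of GRCh38.p14, 250 bases before to 50 bases after the start of the gene, were found for 47 of the 57 genes. The first window listed for a gene was used, while the comparison with all windows counted every one. The start is that of the RefSeq window, which can differ from the gene coordinates given elsewhere. The response element core was searched as GAAANNGAAA on both strands, and the gamma-activated site as TTCNNNGAA, which reads the same on both strands. Matches of the 2 motifs can overlap. The core was present in 30 of the 47 windows, or 63.8%, against 1255 of all 35116 windows, or 3.57%. The gamma-activated site was present in 14 of the 47 windows, or 29.8%, against 7.66% of all windows. The stretches below were chosen to show a tandem core, a core on either strand, and genes whose levels later turn out to be alike or unlike in the resistant lines. Each is 30 bases on the strand of its gene, and capitals mark the response element cores, or, in IRF1 and IRF9, the gamma-activated site. Gamma-activated sites that overlap the cores of IFI27 and EPSTI1 are not marked.
ISG15 (chr1:1013379-1013408, plus strand): ctcggGAAAGGGAAACCGAAActgaagcca
IFIT1 (chr10:89392502-89392531, plus strand): tttagTTTCACTTTCcccTTTCGGTTTCcc
IFI27 (chr14:94110623-94110652, plus strand): tgcagTTTCGGTTTCctgGAAAATGAAAcc
MX1 (chr21:41420564-41420593, plus strand): gaaatGAAACCGAAActgaattgtccggga
EPSTI1 (chr13:42992267-42992296, minus strand): tctgaGAAACCGAAActcagctgttaaaac
HERC5 (chr4:88456989-88457018, plus strand): tacagTTTCCTTTTCCTTTTCgattccgcc
CXCL10 (chr4:76023694-76023723, minus strand): ttttgGAAAGTGAAAcctaattcactatta
LGALS3BP (chr17:78979957-78979986, minus strand): ttctgGAAATCGAAAgtagactcttttctg
IRF1 (chr5:132490873-132490902, minus strand): ctgatTTCCCCGAAatgacggcacgcagcc
IRF9 (chr14:24161197-24161226, plus strand): gtgatTTCTGGGAAaaggccctccctggag
The first 8 stretches show the response element core, and the stretches of IRF1 and IRF9, genes with no core in their windows, show the gamma-activated site. In ISG15 and HERC5, 2 cores share a GAAA block. The MX1 core starts 12 bases after the start of the gene, and the ISG15 and IFIT1 cores lie more than 100 bases before it. A match is only a run of letters and does not show that a factor bound there.

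**Figure D1:**
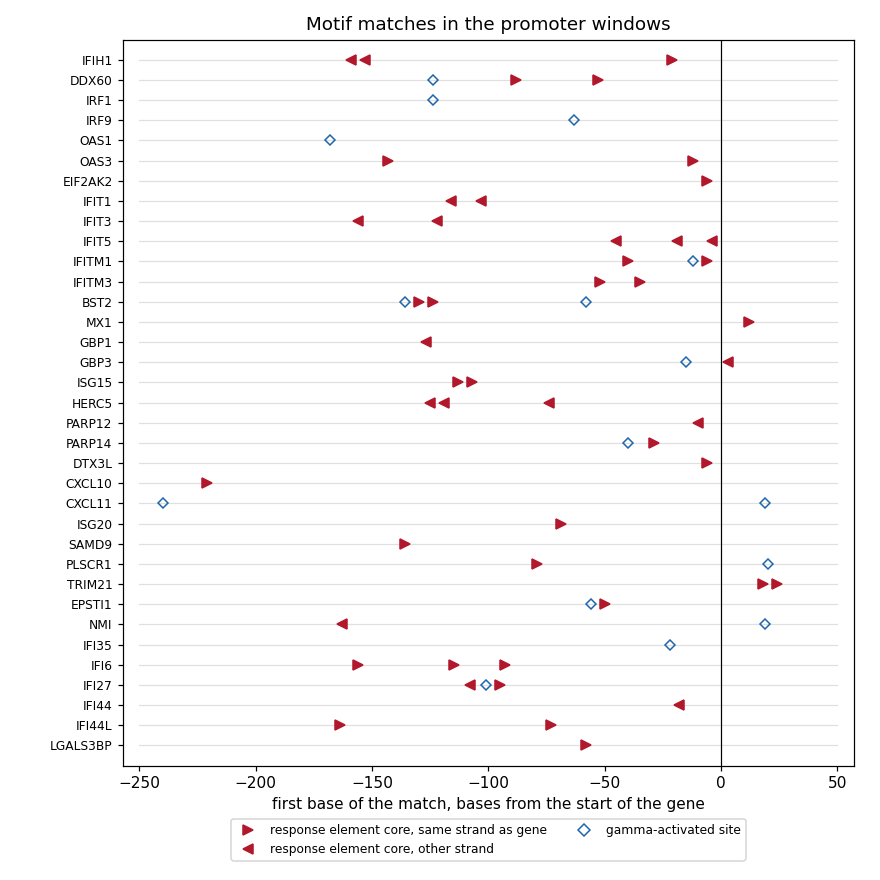
Positions of motif matches in the promoter windows of the interferon-stimulated genes that had at least 1 match. The horizontal axis is the distance in bases from the start of the gene to the first base of the match, filled triangles are response element cores pointing along or against the gene, and open diamonds are gamma-activated sites. Most cores sit before the start, while those of MX1, TRIM21 and GBP3 lie after it.

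The list was higher in both resistant lines than in parental cells, and highest in PBRT15. In PBRT16, 47 of the 57 genes rose over parental cells and 0 fell, against 21.1% of all tested genes that rose and 19.0% that fell. In PBRT15, 56 of the 57 rose and 0 fell, against 21.6% and 19.5% of all tested genes. Because the list was chosen with earlier results of these data known, these counts describe it and are not a test of it. No gene of the list was lower than in parental cells at an unadjusted p under 0.05 in either line, nor was any called lower under the other settings tried. The median log2 fold change over parental cells was 2.26 in PBRT16, against −0.00211 over all tested genes, and 3.5 in PBRT15, against −0.00574 over all tested genes. The summed values of the list were 89090 and 70260 in PBRT16, 171600 and 166100 in PBRT15, and 24210 and 25200 in parental cells. These sums were 0.316% and 0.246% of the library total in PBRT16, 0.58% in each PBRT15 library, and 0.0866% and 0.0904% in parental cells. In bulk RNA, more cells that express a gene and more RNA per cell cannot be told apart.

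The filter favored some of these genes. It was passed by 12 of them only through the resistant libraries, because at least 1 parental library was under 10, which favors genes that are higher in a resistant line. Among the 45 genes that reached 10 in every library, 38 rose in PBRT16 with a median log2 fold change of 1.96, and 44 rose in PBRT15 with a median of 2.86. Leaving out each of the 6 libraries in turn, 33 of the 47 rises in PBRT16 and 52 of the 56 in PBRT15 were called every time. The other PBRT15 rises were those of EIF2AK2 and RSAD2, not called in at least 1 of these fits, and of HERC5 and XAF1. HERC5 and XAF1 were not tested when a PBRT15 library was left out. The 14 PBRT16 rises that were not called or not tested in at least 1 of them were those of DHX58, STAT2, IRF7, OAS1, OAS3, IFIT5, BST2, MX1, PARP12, XAF1, PLSCR1, TRIM21, TRIM22 and SP100. IFIT5 and TRIM21 were called in none of the 6.

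In 48 of the 57 genes the levels followed 1 order without overlap, with both PBRT15 libraries above both PBRT16 libraries and these above both parental libraries. The share of all tested genes that follow this order was not counted, so the 48 only describe the list. In MX1, GBP1, GBP2, CXCL10 and CXCL11 the resistant lines overlapped and both lay above parental cells. EIF2AK2, HERC5, CMPK2 and ISG20 followed neither pattern.

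**Figure D2:**
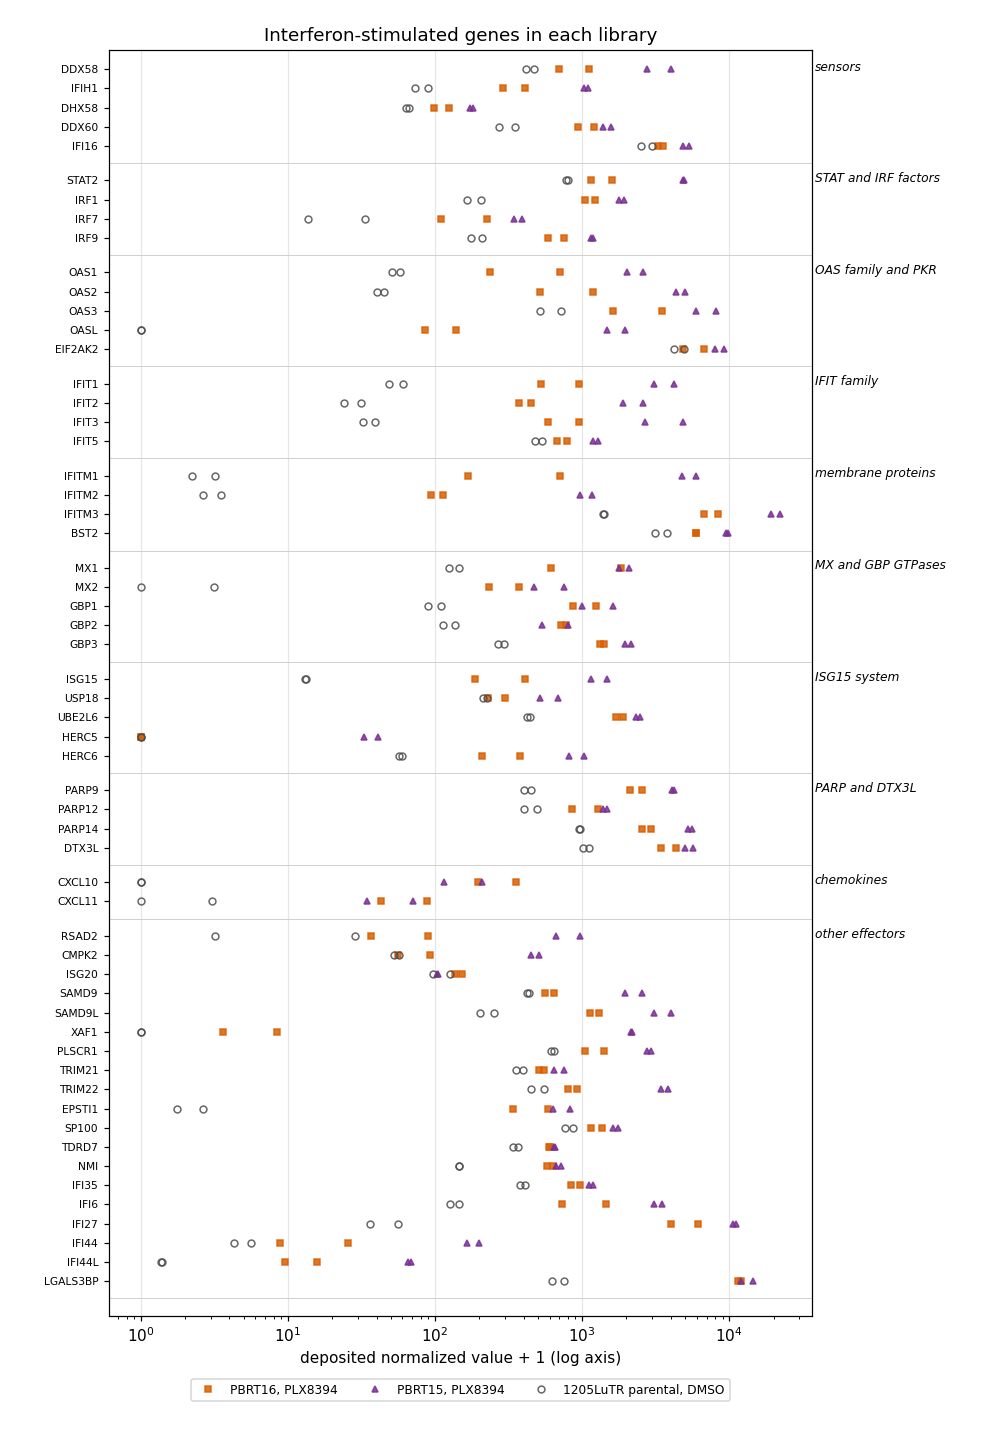
Deposited normalized value plus 1 of each interferon-stimulated gene in each library on a log axis, with genes grouped by role. Orange squares are the 2 PBRT16 libraries, purple triangles the 2 PBRT15 libraries and open circles the 2 parental libraries. In 48 genes the squares lie between the triangles and the circles without overlap, and this order was not counted over all tested genes.

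The sensors that detect viral nucleic acid were higher in the resistant lines. All 5 rose in PBRT15 and 3 of 5 rose in PBRT16. DDX58, which encodes the RNA sensor RIG-I, had 1110 and 691 in PBRT16, 3994 and 2764 in PBRT15, and 472 and 416 in parental cells. The groups did not overlap, and the PBRT16 libraries were closer to parental cells than to PBRT15. Its log2 fold change over parental cells was 0.98 ± 0.30 (SE) in PBRT16, with a limma adjusted p of 0.0552, and 2.91 ± 0.30 in PBRT15, with a limma adjusted p of 0.0025. Without PBRT16 replicate 2 the PBRT16 value of DDX58 was 1.32 and was called, with a limma adjusted p of 0.0429. IFIH1, the gene of the long double-stranded RNA sensor MDA5, had 411 and 288 in PBRT16, 1035 and 1090 in PBRT15, and 88.9 and 71.6 in parental cells. It rose by 2.09 ± 0.22 in PBRT16 and by 3.72 ± 0.22 in PBRT15 (log2, SE).

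DHX58 encodes LGP2, a relative of these sensors that lacks their signaling domain and tunes them. It had 123 and 97.5 in PBRT16, 171 and 181 in PBRT15, and 65.4 and 62.2 in parental cells, with log2 rises of 0.77 ± 0.15 in PBRT16 and 1.45 ± 0.15 in PBRT15 (SE). The DHX58 rise in PBRT16 was not called in 3 of the 6 fits that left out a library, with limma adjusted p of 0.0619 to 0.0727. DDX60, a helicase that has been linked to RIG-I signaling, had 1197 and 931 in PBRT16, 1384 and 1570 in PBRT15, and 346 and 270 in parental cells. Its log2 rises were 1.79 ± 0.20 in PBRT16 and 2.27 ± 0.20 in PBRT15 (SE), and the lines were not called different. IFI16, a DNA sensor, had 3269 and 3537 in PBRT16, 4849 and 5359 in PBRT15, and 2976 and 2501 in parental cells. It rose by 0.90 ± 0.14 on the log2 scale in PBRT15, and its PBRT16 value of 0.32 ± 0.14 had a limma adjusted p of 0.14.

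The 4 STAT and IRF genes of the list, whose products carry the interferon signal to DNA, rose in both lines. STAT2 had 1584 and 1142 in PBRT16, 4941 and 4830 in PBRT15, and 774 and 795 in parental cells. PBRT15 thus stood far above both other groups, with a log2 rise of 2.64 ± 0.18 over parental cells, against 0.78 ± 0.18 in PBRT16 (SE). The STAT2 rise in PBRT16 was not called in 5 of the 6 fits that left out a library, with limma adjusted p of 0.0501 to 0.108, nor with no filter, with 0.0773. IRF9, its DNA-binding partner, had 753 and 584 in PBRT16, 1190 and 1155 in PBRT15, and 206 and 174 in parental cells. Its log2 rises were 1.80 ± 0.18 in PBRT16 and 2.62 ± 0.18 in PBRT15 (SE). The RefSeq window of IRF9, shown above, holds a gamma-activated site. A predicted gene of the annotation overlaps IRF9 on the same strand, so reads could be split between them.

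IRF1, a transcription factor that is itself a rapid target of interferon gamma, had 1218 and 1039 in PBRT16, 1766 and 1911 in PBRT15, and 164 and 204 in parental cells. It rose by 2.62 ± 0.17 in PBRT16 and by 3.32 ± 0.17 in PBRT15 (log2, SE), with no overlap between groups. IRF7, the factor that amplifies interferon alpha production, had 224 and 108 in PBRT16, 391 and 344 in PBRT15, and 12.6 and 32.4 in parental cells. Its log2 rises were 2.88 ± 0.55 and 4.11 ± 0.55 in PBRT16 and PBRT15 (SE), with a wide error, and the 2 libraries differed more than 2-fold in PBRT16 and in parental cells. The IRF7 rise in PBRT16 was not called without PBRT16 replicate 1, with a limma adjusted p of 0.0568. IRF1 is overlapped on the other strand by the antisense gene IRF1-AS1. Whether the counting used strand is not known from the sources here, so both could share reads.

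The strongest contrasts with parental cells came from effector genes that parental cells hardly expressed. IFITM1, IFITM2 and IFITM3 encode membrane proteins that hinder the fusion of viruses with the cell, and lie together on chromosome 11. IFITM1 had 706 and 168 in PBRT16, 4803 and 5897 in PBRT15, and 1.22 and 2.21 in parental cells. Its log2 rises were 7.02 ± 0.70 in PBRT16 and 10.96 ± 0.70 in PBRT15 (SE). The 2 PBRT16 libraries differed about 4-fold from each other, with a log2 ratio of 2.07. IFITM2 had 112 and 93.4 in PBRT16, 961 and 1157 in PBRT15, and 1.63 and 2.49 in parental cells, with log2 rises of 5.09 ± 0.21 in PBRT16 and 8.44 ± 0.21 in PBRT15 (SE). IFITM3, already abundant in parental cells, rose by 2.42 ± 0.16 in PBRT16 and 3.89 ± 0.16 in PBRT15. The 3 genes are related in sequence, and how the counting split reads among them was not tested. BST2, which encodes tetherin, an anchor that holds budding virus on the cell, had 5897 and 5938 in PBRT16, 9481 and 9866 in PBRT15, and 3103 and 3746 in parental cells.

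The OAS genes encode enzymes that make the messenger molecule 2-5A on double-stranded RNA and so switch on RNase L. OASL, a relative without this activity that aids RIG-I, had 138 and 83.8 in PBRT16, 1944 and 1466 in PBRT15, and both parental libraries listed it at 0. OAS1, OAS2 and OAS3, neighbors on chromosome 12, rose in both lines. In PBRT16 the OAS1 call was lost when either parental library was left out, with limma adjusted p of 0.0577 and 0.0611, and so was that of OAS3, with 0.0991 and 0.0564, and with no filter, with 0.0532. OAS2 rose by 4.19 ± 0.41 in PBRT16 and by 6.78 ± 0.41 in PBRT15, the largest of the 3 in each line. EIF2AK2, which encodes PKR, the kinase that halts translation when it meets double-stranded RNA, rose by 0.92 ± 0.21 in PBRT15. This rise was not called with no filter, with a limma adjusted p of 0.0697. It was 0.80 to 1.05, and was not called, whenever a PBRT15 or a parental library was left out. In PBRT16, EIF2AK2 had 6751 and 4815, against 4185 and 4957 in parental cells, and the groups overlapped.

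The IFIT genes, a cluster at chr10:89283694-89421605, encode proteins that bind viral RNA ends. All 4 rose in both lines, by 0.52 to 4.40 on the log2 scale in PBRT16 and by 1.27 to 6.66 in PBRT15. The PBRT16 rise of IFIT5, the smallest, was called in none of the fits that left out a library, with limma adjusted p of 0.0572 to 0.146. It was also not called with 4 libraries in the fit, with 0.0548, or with no filter, with 0.113. IFIT3 had 951 and 588 in PBRT16, 4856 and 2653 in PBRT15, and 31.3 and 38.1 in parental cells. IFIT1, whose product binds viral RNA with a cap that lacks the host methylation, and which has the tandem cores shown above, had 953 and 527 in PBRT16, 4228 and 3094 in PBRT15, and 47.3 and 60.0 in parental cells. IFIT5 moved least, with 782 and 678 in PBRT16, 1270 and 1188 in PBRT15, and 536 and 480 in parental cells. IFIT1, IFIT2 and IFIT3 lie within the LIPA locus, which runs on the other strand.

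The MX and GBP genes encode GTPases that trap viral capsids or attack membranes of pathogens, and all 5 rose in both lines. The MX1 rise in PBRT16 was not called when either parental library was left out, with limma adjusted p of 0.0519 and 0.0561. MX2 had 371 and 232 in PBRT16, 747 and 472 in PBRT15, and 0 and 2.13 in parental cells, with log2 rises of 7.38 ± 0.62 in PBRT16 and 8.39 ± 0.62 in PBRT15 (SE). MX1 had 1821 and 614 in PBRT16, 2084 and 1789 in PBRT15, and 144 and 124 in parental cells, so its first PBRT16 library fell within the PBRT15 range and its second did not. GBP2 had 718 and 770 in PBRT16, 528 and 797 in PBRT15, and 136 and 113 in parental cells. The resistant lines overlapped for GBP1 and GBP2, with log2 fold changes of −0.29 ± 0.31 and 0.20 ± 0.23 for PBRT16 over PBRT15.

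The ISG15 system tags proteins much as ubiquitin does. ISG15, the tag, had 408 and 187 in PBRT16, 1465 and 1153 in PBRT15, and 11.99 and 12.26 in parental cells. UBE2L6, the conjugating enzyme for ISG15, had 1907 and 1701 in PBRT16, 2309 and 2468 in PBRT15, and 423 and 443 in parental cells. HERC5, the main human ISG15 ligase, had 40.3 and 32.1 in PBRT15, and all PBRT16 and parental libraries listed it at 0. Tag and conjugating enzyme thus rose in both lines, while reads of the ligase appeared in PBRT15 alone among these 3 groups, at a low level. USP18, which removes ISG15 and damps the receptor, had 297 and 227 in PBRT16, 685 and 512 in PBRT15, and 224 and 210 in parental cells. It rose by 1.45 ± 0.21 in PBRT15, and its PBRT16 value of 0.26 ± 0.21 had a limma adjusted p of 0.372. The 4 genes PARP9, PARP12, PARP14 and DTX3L, of ADP-ribosyl transferases and the ubiquitin ligase that partners PARP9, rose by 1.23 to 2.45 in PBRT16 and by 1.69 to 3.29 in PBRT15.

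CXCL10 and CXCL11 encode secreted chemokines that draw T cells through the receptor CXCR3. CXCL10 had 354 and 195 in PBRT16, 208 and 114 in PBRT15, and both parental libraries listed it at 0. CXCL11 had 87.4 and 41.9 in PBRT16, 69.8 and 33.3 in PBRT15, and 0 and 2.03 in parental cells. The resistant lines overlapped for both chemokines. Both lie within the ART3 locus on the other strand.

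Of the other 19 effector genes, 14 rose in PBRT16 and 18 in PBRT15. EPSTI1 had 588 and 335 in PBRT16, 822 and 631 in PBRT15, and 1.63 and 0.77 in parental cells, with log2 rises of 7.69 ± 0.35 in PBRT16 and 8.38 ± 0.35 in PBRT15 (SE). IFI27, a small membrane protein gene, had 6145 and 4032 in PBRT16, 10530 and 11080 in PBRT15, and 35.36 and 54.99 in parental cells, with log2 rises of 6.79 ± 0.30 in PBRT16 and 7.90 ± 0.30 in PBRT15 (SE). LGALS3BP, the gene of a secreted galectin-binding protein, had 11920 and 11530 in PBRT16, 12080 and 14560 in PBRT15, and 626 and 757 in parental cells. These 3 genes stood far above parental cells in both lines. XAF1, whose product binds the apoptosis inhibitor XIAP, had 7.39 and 2.62 in PBRT16, 2133 and 2194 in PBRT15, and both parental libraries listed it at 0. XAF1 was therefore abundant in PBRT15 and near 0 in both other groups. Its rise over parental cells in PBRT16 could not be tested when a PBRT15 library was left out, since only PBRT15 reached the filter minimum of 10.

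RSAD2 encodes viperin, an enzyme that makes a chain-terminating nucleotide, and its neighbor CMPK2 encodes a nucleotide kinase that serves it. RSAD2 had 88.9 and 35.5 in PBRT16, 965 and 661 in PBRT15, and 27.5 and 2.18 in parental cells. CMPK2 had 91.7 and 54.7 in PBRT16, 506 and 445 in PBRT15, and 56.0 and 51.2 in parental cells. For both genes only PBRT15 was called over parental cells. The RSAD2 value in PBRT16, a log2 fold change of 2.59 ± 1.11, became 4.17 without parental replicate 1 and was then called, with a limma adjusted p of 0.0227. The RSAD2 rise in PBRT15 was not called without PBRT15 replicate 1, with a limma adjusted p of 0.0534. The 2 genes overlap by 1079 bases on opposite strands, as PARP9 and DTX3L do by 240 bases. IFI44 had 24.4 and 7.78 in PBRT16, 163 and 197 in PBRT15, and 3.32 and 4.64 in parental cells, and likewise only PBRT15 was called. Without PBRT16 replicate 2 the IFI44 value in PBRT16 was 2.37 and was called, with a limma adjusted p of 0.00983. ISG20, an exonuclease gene, had 136 and 152 in PBRT16, 102 and 103 in PBRT15, and 96.5 and 125 in parental cells, and was the only gene of the list called in none of the 3 comparisons.

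**Figure D3:**
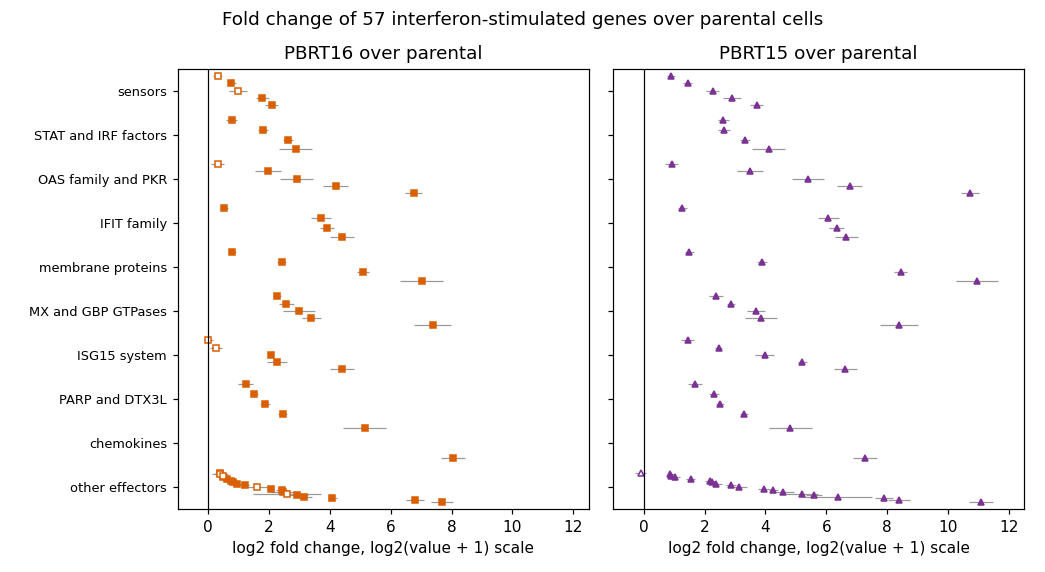
Log2 fold change over parental cells of the 57 genes by role, in PBRT16 on the left and in PBRT15 on the right, on the log2(value + 1) scale. Bars are standard errors, filled symbols had a limma adjusted p of at most 0.05, and open symbols did not. No gene was called below 0 in either line, and 47 genes in PBRT16 and 56 in PBRT15 were called above it.

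Much of the list was lower in PBRT16 than in PBRT15. In PBRT16, 32 of the 57 genes were lower than in PBRT15 and 0 were higher, against 8.28% and 7.50% of all tested genes, and 1 gene was higher at an unadjusted p under 0.05. The median log2 fold change of PBRT16 over PBRT15 was −1.12, against 0.000226 over all tested genes. Among the 45 genes with at least 10 in every library, 25 were lower. The count of 32 was smaller in each fit that left out 1 library, and so was the count over all tested genes. With no filter on low values, 16 genes of the list were lower. Over all tested genes 723 of 29717 were then lower, instead of 1370 of 16555. The median log2 fold change was −0.937 without PBRT15 replicate 1, −1.08 without PBRT15 replicate 2 and −0.814 without PBRT16 replicate 2. Without either PBRT15 library, 55 genes of the list could be tested. The genes lower in every fit that left out 1 library were STAT2, OASL, IFIT2, IFITM2, IFITM3, CMPK2, SAMD9 and TRIM22, 8 in number.

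The gap between the lines differed among roles, as a description with no test between roles. All 4 IFIT genes, all 4 membrane protein genes and 4 of the 5 genes of the ISG15 system were lower in PBRT16, against 1 of the 5 MX and GBP genes and 0 of the 2 chemokines. The median log2 fold changes of these roles, in the same order, were −2.31, −2.41, −1.71, −0.593 and 0.543. Calls also depended on the error. MX2, at −1.01 ± 0.615, was not called, while BST2, at −0.71 ± 0.137, was (SE). XAF1 fell furthest, with a log2 fold change of −8.62 ± 0.40 in PBRT16 over PBRT15. HERC5, called lower in PBRT16 and second in order, has no fold here because it was listed at 0 in both PBRT16 libraries. OASL followed at −3.96 ± 0.28 and IFITM1 at −3.95 ± 0.70. IFI44 was lower by −3.59 ± 0.52, and RSAD2, at −3.80 ± 1.11, was not called, with a limma adjusted p of 0.085. STAT2, the signal carrier, was lower by −1.86 ± 0.18, and SAMD9, a growth-restricting antiviral gene, by −1.89 ± 0.18. TRIM22, a ubiquitin ligase gene, had 922 and 804 in PBRT16, 3452 and 3816 in PBRT15, and 445 and 545 in parental cells, and TRIM5 overlaps it on the other strand. Genes with near-equal levels in both lines included LGALS3BP at −0.18 ± 0.16, NMI at −0.20 ± 0.12 and TDRD7 at −0.12 ± 0.11 (SE).

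**Figure D4:**
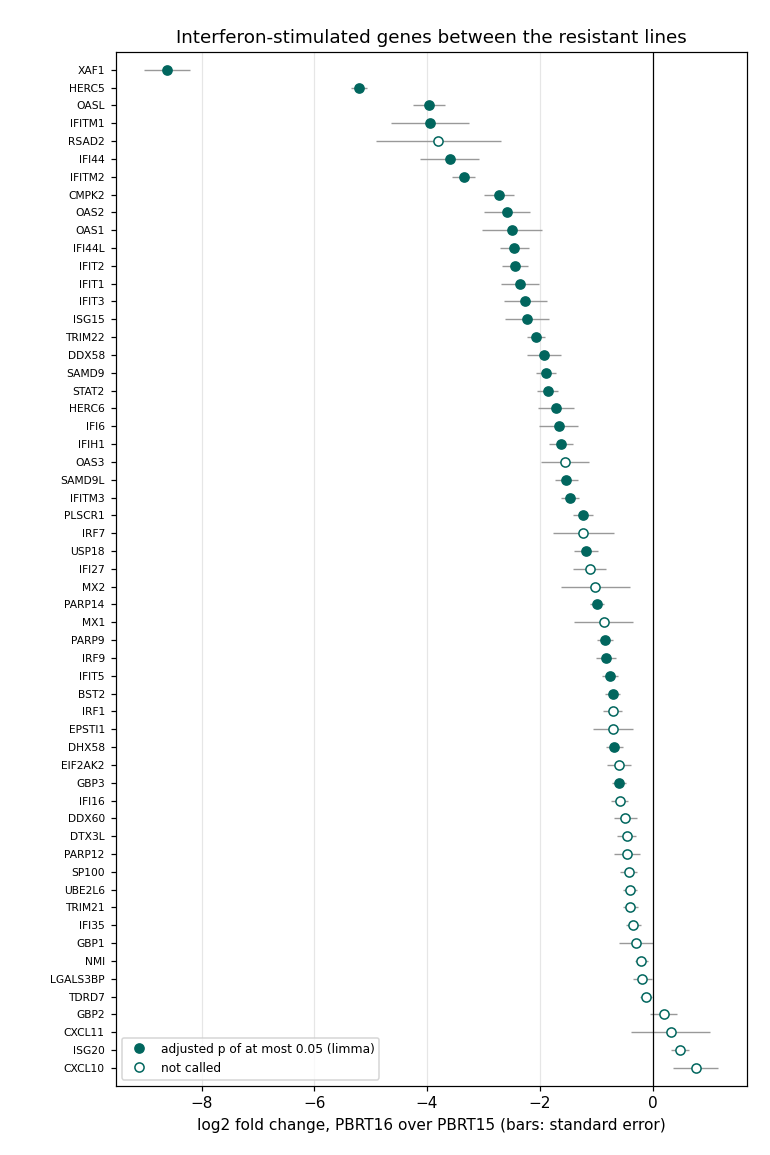
Log2 fold change of PBRT16 over PBRT15 for each interferon-stimulated gene, ordered by size, with standard errors as bars. Filled circles had a limma adjusted p of at most 0.05. All 32 filled circles lie left of 0, and the 4 genes right of 0 (GBP2, CXCL11, ISG20 and CXCL10) are open.

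The response element core was about as common among genes called lower in PBRT16 as among those not called. Of the genes lower in PBRT16 than in PBRT15 that had a window, 16 of 25, or 64.0%, held the response element core, against 14 of 22, or 63.6%, of those not called. Genes not called are not genes without a difference, since 53 of the 57 had a negative log2 fold change of PBRT16 over PBRT15. Any part of the motifs in the gap between the lines was not tested. EPSTI1 and MX1 have the same 10 letters as core, GAAACCGAAA. Their log2 fold changes of PBRT16 over PBRT15 were −0.70 ± 0.355 and −0.87 ± 0.52 (SE), and neither was called with all 6 libraries in the fit. That of MX1 was −1.65 without PBRT16 replicate 1. ISG15 has these letters too, within its overlapping cores, and was lower in PBRT16 by −2.23 ± 0.39 on the log2 scale. The ISG15 call was lost with no filter, with a limma adjusted p of 0.0643, and with 4 libraries in the fit, with 0.053.

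The 2 PBRT16 libraries differed from each other in this program. In PBRT16, 50 of the 57 genes were higher in replicate 1 than in replicate 2, with a median log2 ratio of 0.43, against −0.01 over all tested genes. Replicate 1 was at least 1.5-fold higher for 23 of the 57, against 6.23% of all tested genes. In PBRT15, 36 genes were higher in replicate 1, with a median log2 ratio of 0.10, and in parental cells 24 were, with a median of −0.02. The widest ratios within PBRT16 were those of IFITM1, OAS1, MX1 and IFI44, at 1.53 to 2.07, whereas BST2, GBP2, GBP3, IFI16 and NMI were level between the 2 libraries to within 0.12.

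Genes for interferons themselves were close to 0. Of 21 ligand genes, 20 did not exceed 1.02 in any library, 16 of them listed at 0 throughout. IFNE, an interferon of epithelia, was the only one tested and had 8.95 and 13.1 in PBRT16, 14.2 and 11.4 in PBRT15, and 94.5 and 71.2 in parental cells, so it fell in both lines. Of the 6 receptor genes, PBRT16 had 2 rises and 2 falls, and PBRT15 had 2 rises and 3 falls. IFNAR1, a chain of the type I interferon receptor, had 2383 and 2393 in PBRT16, 1691 and 1517 in PBRT15, and 2493 and 2362 in parental cells. IFNAR2, also a chain of this receptor, had 913 and 841 in PBRT16, 787 and 815 in PBRT15, and 805 and 694 in parental cells. IFNAR2 was called in no comparison. Any part of these chains in the levels of the list was not tested. IFNGR1, a chain of the receptor for interferon gamma, had 2045 and 1916 in PBRT16, 1671 and 1390 in PBRT15, and 644 and 533 in parental cells.

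Of the kinase genes, JAK1 had 5140 and 4917 in PBRT16, 6036 and 5730 in PBRT15, and 2815 and 2796 in parental cells, and rose in both lines. STAT3, a factor of the same family as STAT2 that many cytokines activate, had 3898 and 3685 in PBRT16, 3421 and 3583 in PBRT15, and 1995 and 2147 in parental cells, and also rose in both lines. JAK2 and TYK2 were called in neither line. Of the 10 sensing adaptors and kinases tested, 5 rose and 2 fell in each line. The shares over all tested genes were 21.1% and 19.0% in PBRT16, and 21.6% and 19.5% in PBRT15. STING1, the adaptor of DNA sensing, had 699 and 894 in PBRT16, 1316 and 1236 in PBRT15, and 151 and 132 in parental cells. TLR3, an endosomal sensor of double-stranded RNA, had 519 and 425 in PBRT16, 568 and 616 in PBRT15, and 57.8 in each parental library. CGAS, the enzyme that feeds STING1, had 485 and 545 in PBRT16, 552 and 544 in PBRT15, and 762 and 702 in parental cells, and so fell in both lines.

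Of 6 inhibitor genes tested, 2 rose in PBRT16 and 4 in PBRT15, against 21.1% and 21.6% of all tested genes. SOCS3, which blocks JAK kinases, had 913 and 1503 in PBRT16, 2451 and 4604 in PBRT15, and 96.9 and 105 in parental cells. ADAR, which edits double-stranded RNA and so hides it from MDA5, had 9369 and 7861 in PBRT16, 18160 and 16420 in PBRT15, and 10960 and 10670 in parental cells. ADAR therefore rose in PBRT15 and was lower in PBRT16 than in PBRT15 by −1.01 ± 0.14 (log2, SE). The 10 antigen presentation genes, targets of interferon gamma as well, rose in 10 of 10 cases in PBRT16 and in 9 of 10 in PBRT15. Between the lines 0 of 10 were called, while 7.50% of all tested genes were higher in PBRT16 and 8.28% lower. PBRT16 over PBRT15 was 0.57 ± 0.18 for HLA-B and −0.44 ± 0.14 for TAP1 (log2, SE). HLA-B had 13130 and 11460 in PBRT16, 7307 and 9386 in PBRT15, and 1743 and 1501 in parental cells.

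**Figure D5:**
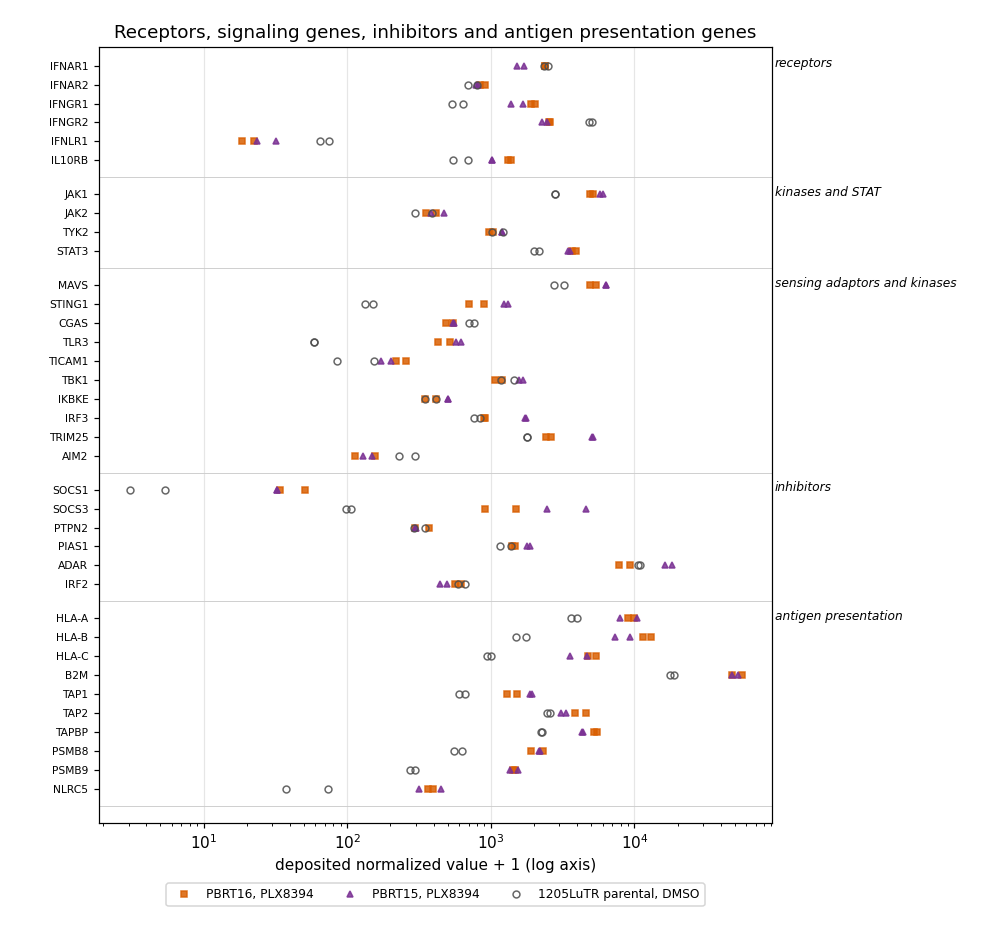
Deposited normalized value plus 1 on a log axis for tested receptor, signaling, sensing, inhibitor and antigen presentation genes. Orange squares are PBRT16, purple triangles PBRT15 and open circles parental libraries. IRF3, TRIM25 and ADAR are lower in PBRT16 than in PBRT15, and no antigen presentation gene was called between the lines.

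Some markers of cell identity differed between the same groups, and others did not. The melanocyte genes SOX10 and S100B were at 1.67 or less in every resistant library, against 4103 to 10990 in parental cells, while MITF rose in both lines. Of the 5 melanocyte markers tested, 2 fell, 1 rose and 2 were not called in each line. Over all tested genes, 19.0% fell and 21.1% rose in PBRT16, and 19.5% fell and 21.6% rose in PBRT15. The summed level of the 8 melanocyte markers was 2242 and 2214 in PBRT16, 847 and 953 in PBRT15, and 15490 and 12310 in parental cells. Of the 5 fibroblast markers tested, 3 rose in PBRT16 and 5 in PBRT15. Between the lines, 4 of the 5 were lower in PBRT16, against 8.28% of all tested genes. COL1A2, at 19.9 and 15.4 in PBRT16, and THY1, at 8.14 and 6.84, were not called in PBRT16 over parental cells. The sum of all 6 fibroblast markers listed was 15450 and 20750 in PBRT16, 121900 and 131800 in PBRT15, and 195 and 339 in parental cells. Of the 2 keratinocyte markers tested, 1 fell in each line. The 1 endothelial marker tested fell in PBRT15 and was not called in PBRT16. The part of these cell markers in the levels of the interferon-stimulated genes was not tested. None of the 8 immune markers passed the filter, and their highest value in any library was 6.62, with sums of 6.17 and 20.7 in PBRT16, 10.8 and 14.9 in PBRT15, and 6.46 and 7.79 in parental cells. The mitochondrial share of the library total was 4.43% and 4.53% in PBRT16, 4.09% and 4.10% in PBRT15, and 6.30% and 6.15% in parental cells.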

How the data were processed

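RNA-seq of 6 libraries in 3 groups was used. Libraries were stranded and paired-end, per the labels. The submitters' notes name the build GRCh38, STAR 2.6.1a, RSEM, Picard and DESeq2. The deposited values are a normalized signal per gene that the authors made. The sources used here do not say how they normalized it, the values are not whole counts, and no single step per library gave whole reads back, so no count test was run. The fit is the one planned for normalized values.

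IDs were matched to GENCODE 44 symbols and GRCh38 coordinates (60357 of 60617, without 45 pseudoautosomal copies). A gene was tested if its value, scaled to the library total, reached 10 in 2 or more libraries and its total reached 15. The 3 groups were fitted on log2(value + 1) in limma 3.58.1 under R 4.3.3, without a replicate block (3 residual degrees of freedom, plus 1.89 from the empirical Bayes step), with Benjamini-Hochberg adjustment. The fit was tested on simulated data. Alternatives changed the scaling, pseudocount, filter, libraries in the fit, prior spread, call rule and replicate block.

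The 57 genes and the other lists were chosen with earlier results of these data known. Every gene of the list could be named. Values per library were planned for sensors, STAT and IRF genes and the 5 largest called rises and falls of each comparison, and further members shown per library are examples chosen after their values were seen. Other genes came from lists of ligands, receptors, kinases, adaptors, inhibitors, antigen presentation genes and cell type markers. DDX58 is RIGI in GENCODE 44. Genes whose 2 libraries of a group were listed at 0 are given as values with no fold against that group, except for the fitted HERC5 value in the closing section. Promoter windows are RefSeq's for GRCh38.p14, with no window used for DHX58, IRF7, OAS2, OASL, IFIT2, IFITM2, MX2, GBP2, USP18 and TRIM22. One gene of these lists is not reported here.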

Additional observations from a re-analysis of the deposited data

Results flagged for a closer look

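For 32 interferon-stimulated genes the change over parental cells differed between the resistant lines, by the limma contrast of PBRT16 over PBRT15, which is the difference of their fold changes over the shared parental libraries. All were lower in PBRT16, and their log2 fold changes of PBRT16 over PBRT15 follow by role. No cause was tested, and the dependence of these calls on single libraries is given below.

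Among sensors and signal carriers, the log2 fold change was −1.92 for DDX58, −1.62 for IFIH1, −0.68 for DHX58, −1.86 for STAT2 and −0.82 for IRF9. It was −2.49 for OAS1, −2.58 for OAS2 and −3.96 for OASL. In the IFIT family it was −2.35 for IFIT1, −2.44 for IFIT2, −2.26 for IFIT3 and −0.75 for IFIT5. Among membrane protein genes it was −3.95 for IFITM1, −3.35 for IFITM2, −1.47 for IFITM3 and −0.71 for BST2, and it was −0.59 for the GTPase gene GBP3.

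In the ISG15 system the log2 fold change was −2.23 for ISG15, −1.19 for USP18 and −1.71 for HERC6. HERC5 was listed at 0 in both PBRT16 libraries, so its fitted −5.21 depends on the pseudocount. It was −0.84 for PARP9 and −0.98 for PARP14. Among the other effectors it was −2.73 for CMPK2, −1.89 for SAMD9, −1.53 for SAMD9L, −8.62 for XAF1, −1.23 for PLSCR1, −2.07 for TRIM22, −1.67 for IFI6, −3.59 for IFI44 and −2.45 for IFI44L.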

How the results depend on the processing

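The direction of each median held under every alternative run, and that of each called gene under every alternative in which it was tested. Of the 57 genes, 55 were tested when a PBRT15 library was left out, and 53 with 4 libraries in the fit of PBRT16 over parental cells. The count of genes lower in PBRT16 than in PBRT15, 32 as reported, was 16 with no filter on low values and between 8 and 24 when 1 library was left out. It was 27 with the replicate block, 23 with 4 libraries in the fit, 39 with a prior spread that followed the expression level, 36 with a pseudocount of 5, and 25 with a fold of at least 2. The count of genes higher than in parental cells was 37 to 50 in PBRT16 and 52 to 56 in PBRT15 over all alternatives. With a pseudocount of 5 the median log2 fold change over parental cells was 2.03 in PBRT16 and 3.28 in PBRT15. Leaving out 1 library gave medians over parental cells of 1.94 to 2.51 in PBRT16 and 3.27 to 3.54 in PBRT15, and −1.42 to −0.81 for PBRT16 over PBRT15. A lone library left in a group was assumed to vary like the other groups. Deviations of same-numbered libraries correlated at 0.136 for PBRT16 with PBRT15, 0.0384 for PBRT16 with parental cells and 0.018 for PBRT15 with parental cells, so the numbers were not taken as pairs. Under the replicate block 47 genes in PBRT16 and 56 in PBRT15 were higher than in parental cells. With 2 libraries per group, even differences of several standard errors could go uncalled. An example is IRF1, at −0.707 ± 0.166 for PBRT16 over PBRT15 (log2, SE).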

Other observations

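Several of these genes are neighbors, and neighbors did not always share a level. HERC6 and HERC5 lie together at chr4:88378739-88506163. HERC6 had 377 and 207 in PBRT16, 1028 and 817 in PBRT15, and 56.1 and 58.8 in parental cells, while HERC5 was listed at 0 in PBRT16 and in parental cells. SAMD9 and SAMD9L lie together at chr7:93099513-93148385. SAMD9L had 1308 and 1123 in PBRT16, 3998 and 3055 in PBRT15, and 203 and 252 in parental cells, and rose in both lines. SAMD9 had 643 and 560 in PBRT16, 2557 and 1943 in PBRT15, and 435 and 418 in parental cells, and was not called in PBRT16, with a limma adjusted p of 0.0827. IFI44L and IFI44, at chr1:78619902-78664078, were both higher in PBRT15 than in parental cells, and IFI44L was called in PBRT16 as well, at 14.8 and 8.56 against 0.36 and 0.39 in parental cells. No test between neighbors was run.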
